A study of Homo sapiens with 38 samples.

Results

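The change that gene expression underwent between 16 h and 24 h of CHIR99021 is described here for all genes, in H9, an established line of human embryonic stem cells. CHIR 24 h held 2 biological replicate libraries of H9 cultures kept for 24 h in 10 µM CHIR99021, and CHIR 16 h, against which it was set, held 2 libraries of H9 cultures kept for 16 h in the same dose. These 4 libraries were chosen by their labels and no measured value entered the choice. The whole series had 38 libraries of total RNA from 19 groups, each with 2 replicates, over time courses with CHIR99021, recombinant Wnt3a and induced beta-catenin. The treated cultures compared here were taken from mTESR1 medium on Geltrex and seeded densely on Matrigel. They were then moved to RPMI1640 with B27 lacking vitamin A, so the change of medium is shared by both times. Medium and agent were renewed daily, and no culture in the series received the differentiation medium without an agent. Time in CHIR99021, time in the medium and time since its last renewal therefore cannot be told apart in this step. The comparison with an independent arm used 2 libraries of bcat 24 h and 2 of bcat 16 h. That H9 line carries a stable, doxycycline-regulated deltaN90 form of beta-catenin, which is constitutively active, and received 1 µg/ml doxycycline and no CHIR99021; the labels do not say whether the line is a clone. Libraries of CHIR 48 h and CHIR 8 h, 2 each, with the same 10 µM dose, gave a wider interval of the same time course that shares no library with the step. The time course was described with CHIR 0 h and CHIR 72 h as well, 2 libraries each. CHIR 0 h held undifferentiated H9 cells without CHIR99021, and CHIR 72 h had the same 10 µM dose. CHIR 0 h therefore differed from the later times in both agent and medium.

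CHIR99021 inhibits the kinase GSK3, which normally marks beta-catenin for destruction. When the kinase is blocked, beta-catenin builds up and acts with the TCF and LEF factors on WNT target genes, and human embryonic stem cells so treated pass through a primitive streak-like state towards mesoderm. GSK3 has many other substrates, among them glycogen synthase and MYC, so the inhibitor and a stabilised beta-catenin do not reach the same set of proteins. Bulk RNA measures the sum over a culture, so fewer cells of a type and less RNA per cell cannot be told apart.

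The CHIR 24 h libraries held 9055000 and 26324000 estimated counts, and the CHIR 16 h libraries 11262000 and 23461000, within a range of 2451000 to 65750000 over the 37 libraries used (rounded). Levels are given in CPM, counts scaled to the library total with TMM factors, which even out differences in composition. Log2 levels of the replicates correlated at 0.977 (24 h) and 0.979 (16 h) across 24304 genes. Ribosomal RNA made up 4.74% and 5.8% of counts at 24 h, and 9.1% and 1.71% at 16 h; without ribosomal RNA and mitochondrially encoded genes, 2060 genes were called in place of the 1966 below. Markers of pluripotent stem cells were high in all 4 libraries, with summed levels over 6 genes of 2794 and 2963 CPM at 24 h, against 3158 and 3293 CPM at 16 h. Streak markers (4 genes) summed to 515 and 570.3 CPM at 24 h, against 337 and 357 CPM at 16 h. Markers of definitive endoderm, presomitic mesoderm, neural ectoderm, endothelium and blood, amnion and trophoblast, and heart each summed to at most 3.98 CPM in any of the 4 libraries, with SOX17 and GATA3 at 0 in all 4. Markers of pluripotent cells and of the streak were thus both present at both times.

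Between 16 h and 24 h, 948 genes rose and 1018 fell, at an adjusted p below 0.05 in edgeR's quasi-likelihood test. That is 8.09% of the 24304 genes tested, with 3.9% higher and 4.19% lower. These shares are the background for every list count of the step below, also where they are not repeated. A list with few calls is not read as a result about its members. Among protein-coding genes with a mean of at least 5 CPM the shares were larger. In groups by transcript length they ran from 4.4% to 8.93% higher and from 4.54% to 11% lower. The risen genes had a median 1.76-fold difference, with 359 at 2-fold or more and 94 at 4-fold or more. The fallen genes had a median 1.6-fold difference, with 213 at 2-fold or more and 39 at 4-fold or more. Protein-coding genes gave 802 rises and 952 falls among 16177 tested, and long noncoding genes 50 rises and 16 falls among 1637. The calls leaned on every library. With a library left out there were 862 calls (CHIR 24 h replicate 1 absent), 768 (CHIR 24 h replicate 2 absent), 1395 (CHIR 16 h replicate 1 absent) and 678 (CHIR 16 h replicate 2 absent). In all, 382 of the 1966 genes (187 higher, 195 lower) were called in the same direction in all 4 of these fits. Groups of 2 libraries did not overlap for 51% of all genes tested, so the absence of overlap alone says little here.

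**Figure D1:**
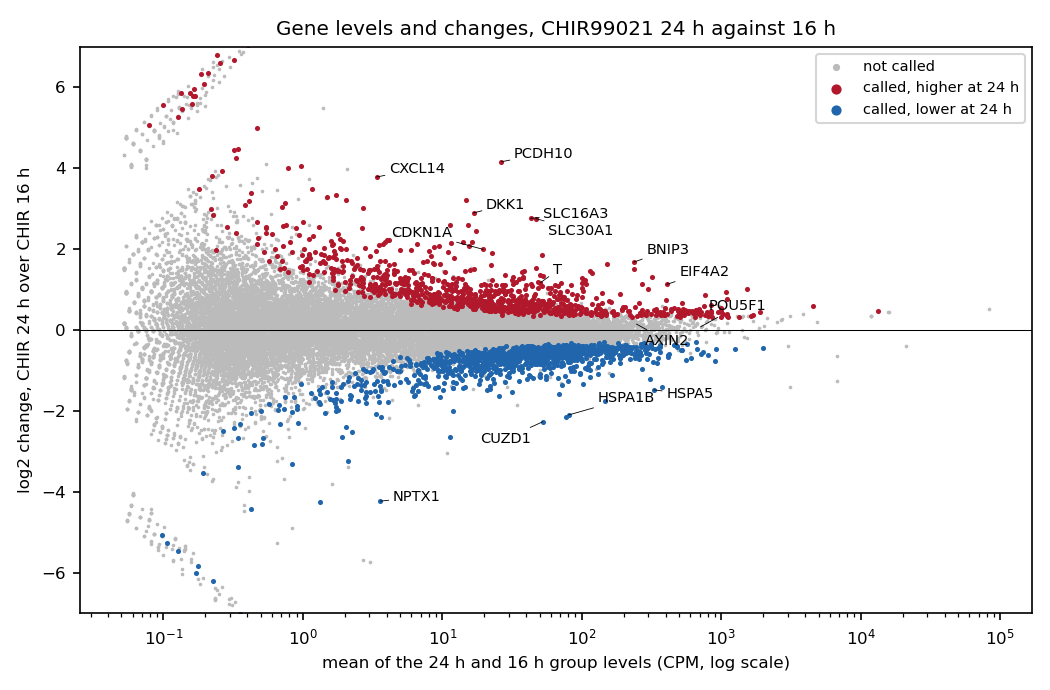
Change of each gene (log2, CHIR 24 h over CHIR 16 h) against its mean level over both groups (CPM, log scale). Red points are the genes called higher at 24 h, blue points those called lower, and grey points the rest; PCDH10 with 4.16 and NPTX1 with -4.23 are the highest and the lowest of the labelled genes, while AXIN2 and POU5F1 lie near 0. The plot leaves off 931 genes at very low levels or beyond its vertical axis, 6 of them called.

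The most risen protein-coding genes were led by a cell adhesion molecule, a chemokine, a WNT antagonist, a lactate transporter and a zinc transporter. PCDH10, a protocadherin, had 51.6 and 49.1 CPM in the 24 h libraries, against 2.19 and 3.16 CPM in the 16 h libraries. Its log2 change was 4.16 ± 0.30 (SE, adjusted p = 3.43e-09). CXCL14, a secreted chemokine, had 6.17 and 6.49 CPM in the 24 h libraries, against 0.243 and 0.581 CPM in the 16 h libraries. For CXCL14 the log2 change was 3.79 ± 0.37 (SE, adjusted p = 5.5e-08). For both genes each 24 h library lay far above both 16 h libraries. BTG2, an antiproliferative gene, had 26.8 and 25.5 CPM in the 24 h libraries, against 4.62 and 4.03 CPM in the 16 h libraries. For BTG2 the log2 change was 2.61 ± 0.19 (adjusted p = 5.29e-10). ARRB1, which encodes beta-arrestin 1, had 7.87 and 6.02 CPM in the 24 h libraries, against 1.14 and 1.63 CPM in the 16 h libraries. For ARRB1 the log2 change was 2.23 (adjusted p = 2.61e-07). RHBDF1, an inactive rhomboid protein of the secretory pathway, had 24.5 and 29.5 CPM in the 24 h libraries, against 5.36 and 6.39 CPM in the 16 h libraries. For RHBDF1 the log2 change was 2.19 (adjusted p = 1.2e-07). All of these separated the times without overlap, which the rule for naming them required. TEF, a bZIP transcription factor, had 22.2 and 24 CPM in the 24 h libraries, against 5.6 and 4.76 CPM in the 16 h libraries. For TEF the log2 change was 2.18 (adjusted p = 2.48e-07). The remaining members of the 12 most risen, beside DKK1, SLC16A3 and SLC30A1 below, were FAM189A2 (2.17 log2, adjusted p = 2.71e-05), PCDH20 (2.14 log2, adjusted p = 0.00068) and GRIN2A, an NMDA receptor subunit (2.16 log2, adjusted p = 0.0319). The GRIN2A libraries differed among themselves, with 11.8 and 26 CPM at 24 h, against 3.57 and 4.9 CPM at 16 h, and its call was lost without CHIR 24 h replicate 2 (adjusted p = 0.336), without CHIR 16 h replicate 1 (adjusted p = 0.163) or without CHIR 16 h replicate 2 (adjusted p = 0.164).

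The most fallen protein-coding genes were NPTX1, CUZD1 and VCL. NPTX1, a neuronal pentraxin, had 0.0996 and 0.469 CPM in the 24 h libraries, against 7.3 and 6.5 CPM in the 16 h libraries, and fell by 4.23 ± 0.82 on the log2 scale (adjusted p = 0.0026). CUZD1, a protein with CUB and zona pellucida-like domains, had 15.5 and 20.1 CPM in the 24 h libraries, against 97.5 and 76.5 CPM in the 16 h libraries, and fell by 2.26 ± 0.19 (log2, adjusted p = 3.85e-09). CUZD1 went on to be nearly absent later: its group means were 42.1 CPM at 0 h, 82.2 at 8 h, 87 at 16 h, 17.8 at 24 h, 0.0888 at 48 h and 0.793 at 72 h. VCL, the focal adhesion protein vinculin, had 27.3 and 29.8 CPM in the 24 h libraries, against 76.8 and 176 CPM in the 16 h libraries. For VCL the log2 change was -2.15 ± 0.50 (adjusted p = 0.0112). Its 16 h libraries differed by more than 2-fold from each other, and the call was lost without CHIR 24 h replicate 1 (adjusted p = 0.0975), without CHIR 24 h replicate 2 (adjusted p = 0.0938) or without CHIR 16 h replicate 2 (adjusted p = 0.192). PCDH7, another protocadherin, had 1.09 and 1.48 CPM in the 24 h libraries, against 5.92 and 6.03 CPM in the 16 h libraries (-2.14 log2, adjusted p = 0.000319), opposite in direction to PCDH10. MAP1A, a microtubule-associated protein, had 1.09 and 1.41 CPM in the 24 h libraries, against 4.87 and 5.92 CPM in the 16 h libraries. For MAP1A the log2 change was -2.07 (adjusted p = 1.07e-05). CBLN1, a secreted synaptic organiser, had 5.48 and 4.29 CPM in the 24 h libraries, against 19.9 and 18.3 CPM in the 16 h libraries. For CBLN1 the log2 change was -1.99 (adjusted p = 0.000145). IDO1, which breaks down tryptophan, had 1.59 and 1.95 CPM in the 24 h libraries, against 7.63 and 5.01 CPM in the 16 h libraries. For IDO1 the log2 change was -1.76 (adjusted p = 1.7e-05). For all of these the 24 h libraries lay below both 16 h libraries, which the rule for naming them required. HSPA1B, of the same set, is described below. LZTS1 (-1.66 log2, adjusted p = 0.00253), EFNA5, an ephrin ligand (-1.64 log2, adjusted p = 0.0241), and HAPLN4, a hyaluronan link protein (-1.79 log2, adjusted p = 0.0279), lost their calls when a library was left out: LZTS1 without CHIR 24 h replicate 2 (adjusted p = 0.0634), EFNA5 without CHIR 24 h replicate 1 (adjusted p = 0.123), without CHIR 24 h replicate 2 (adjusted p = 0.169) or without CHIR 16 h replicate 2 (adjusted p = 0.199), and HAPLN4 without CHIR 24 h replicate 1 (adjusted p = 0.154), without CHIR 24 h replicate 2 (adjusted p = 0.161), without CHIR 16 h replicate 1 (adjusted p = 0.0609) or without CHIR 16 h replicate 2 (adjusted p = 0.152).

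**Figure D2:**
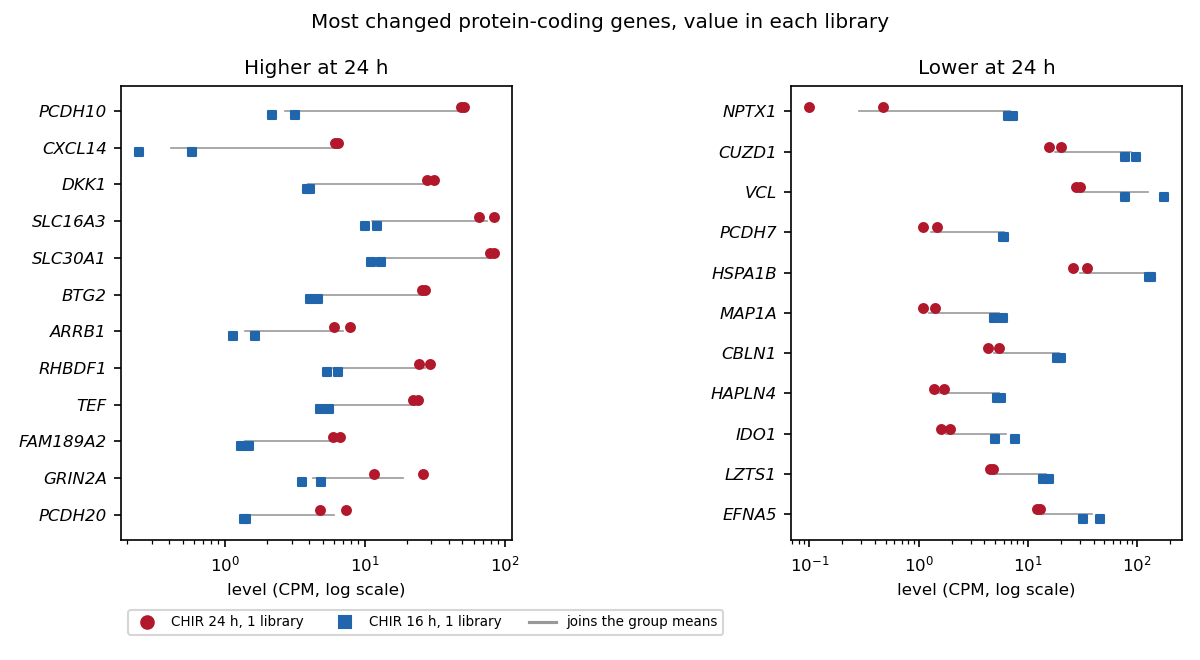
Level in each library (CPM, log scale) of the 12 protein-coding genes with the largest rise (left panel) and of genes of the 12 with the largest fall (right panel) among called genes with at least 5 CPM in the higher group. Circles are CHIR 24 h libraries, squares CHIR 16 h libraries, and lines join the group means. The circles and squares of each gene do not overlap, which the choice of genes required. The 16 h squares of VCL stand widest apart (76.8 and 176 CPM).

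WNT pathway genes gave a mixed picture in this step. Of 22 WNT feedback genes and direct targets tested, 3 rose and 2 fell, and the others did not pass. Over all genes, 3.9% were higher and 4.19% lower. DKK1, a secreted antagonist that binds the LRP5 and LRP6 coreceptors, had 31.3 and 27.8 CPM in the 24 h libraries, against 4.06 and 3.85 CPM in the 16 h libraries. For DKK1 the log2 change was 2.9 ± 0.32 (SE, adjusted p = 4.32e-06). NOTUM, an enzyme that inactivates WNT proteins by removing their lipid, had 8.46 and 11.5 CPM in the 24 h libraries, against 4.3 and 4.07 CPM in the 16 h libraries. For NOTUM the log2 change was 1.29 ± 0.25 (adjusted p = 0.00115). DKK4, a relative of DKK1, had 9.86 and 10.3 CPM in the 24 h libraries, against 4.54 and 5.08 CPM in the 16 h libraries. For DKK4 the log2 change was 1.06 (adjusted p = 0.0309). All 3 encode secreted antagonists. Such genes did not all rise: SFRP1, a secreted WNT antagonist outside this list, fell (-0.59 log2, adjusted p = 0.00167). SFRP2 and FRZB, of the same kind, did not pass. AXIN2, the scaffold of the destruction complex and a standard readout of the pathway, had 239 and 279.8 CPM in the 24 h libraries, against 209.7 and 257 CPM in the 16 h libraries, with overlapping groups (0.15 ± 0.18 log2, adjusted p = 0.709). SP5, a zinc finger factor and direct target, had 218 and 285 CPM in the 24 h libraries, against 204 and 217 CPM in the 16 h libraries, which did not pass (0.26 ± 0.23 log2, adjusted p = 0.608). MYC fell, with 11.2 and 10.8 CPM at 24 h, against 15.7 and 21.6 CPM at 16 h (-0.79 log2, adjusted p = 0.0342). The other faller of the 22 was CCND1, which encodes cyclin D1 (-0.55 log2, adjusted p = 0.0331). CTNNB1, the gene of beta-catenin itself, had 428 and 448 CPM at 24 h, against 512 and 521 CPM at 16 h and did not pass (-0.24 log2, adjusted p = 0.166). Among WNT ligands, 1 of 13 tested rose, beside 3.9% of all genes. This was WNT5B, a noncanonical ligand, with 86.1 and 95.5 CPM at 24 h, against 47.6 and 53.7 CPM at 16 h. For WNT5B the log2 change was 0.84 (adjusted p = 0.000121). Leaving out a library cost NOTUM its call without CHIR 24 h replicate 2 (adjusted p = 0.0742), MYC without CHIR 24 h replicate 1 (adjusted p = 0.134), without CHIR 24 h replicate 2 (adjusted p = 0.205) or without CHIR 16 h replicate 2 (adjusted p = 0.364), and DKK4 without CHIR 24 h replicate 1 (adjusted p = 0.0972), without CHIR 24 h replicate 2 (adjusted p = 0.176), without CHIR 16 h replicate 1 (adjusted p = 0.135) or without CHIR 16 h replicate 2 (adjusted p = 0.175). No member of the list fell without CHIR 16 h replicate 2 or without either CHIR 24 h replicate.

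The start region of DKK1 is shown because the gene had the largest rise in the WNT list. It is given 5′ to 3′ from 250 bases before to 50 bases after the annotated start, on the plus strand of GRCh38.p14, chr10:52314031-52314330, from RefSeq. Capitals mark matches to the TCF/LEF word CTTTGAT, to its variant CTTTGAA or to the further variant CTTTGTT, each searched on both strands.
DKK1: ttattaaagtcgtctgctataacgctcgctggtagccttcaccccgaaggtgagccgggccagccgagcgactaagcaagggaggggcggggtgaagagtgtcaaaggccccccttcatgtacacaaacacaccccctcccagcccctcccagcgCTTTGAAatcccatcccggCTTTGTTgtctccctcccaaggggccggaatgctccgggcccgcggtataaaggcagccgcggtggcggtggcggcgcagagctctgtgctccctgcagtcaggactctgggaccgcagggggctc
The DKK1 window held CTTTGAA and CTTTGTT once each. Over 27305 RefSeq promoter windows of the same length, 2.64% held CTTTGAT, 4.53% CTTTGAA and 5.28% CTTTGTT. Windows were matched for 13300 tested genes, of which 618 had risen and 787 had fallen. The 3 words did not lean one way: CTTTGAT was in 1.94% of the risen, 1.52% of the fallen and 1.58% of all matched genes, CTTTGAA in 3.72%, 2.41% and 3.06%, and CTTTGTT in 2.91%, 3.3% and 3.68%. The CDX word TTTATG was in 6.15%, 4.45% and 6.08% of the same sets, and the T-box word GGTGTGA in 2.59%, 2.92% and 3.08%.

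Some streak genes rose while 3 core pluripotency factors did not pass the test. Of 22 primitive streak and mesendoderm genes tested, 5 rose and none fell, beside 3.9% of all genes higher and 4.19% lower. The median log2 change was 0.43, beside 0.01 over all genes. T (brachyury), the defining T-box factor of the streak, had 74 and 66.1 CPM in the 24 h libraries, against 30.9 and 31 CPM in the 16 h libraries. For T the log2 change was 1.17 ± 0.18 (SE, adjusted p = 8.92e-05). It kept its call in every alternative and without each of the 4 libraries. MIXL1, a homeobox factor of mesendoderm, had 148 and 148 CPM in the 24 h libraries, against 63.6 and 70.4 CPM in the 16 h libraries. For MIXL1 the log2 change was 1.14 ± 0.33 (adjusted p = 0.0383). EOMES, a T-box factor needed for endoderm, had 75 and 71.4 CPM at 24 h, against 38.5 and 38.8 CPM at 16 h; its groups did not overlap but the test did not pass (0.92 ± 0.34 log2, adjusted p = 0.11). CDX2, a posterior homeobox factor, had 53.2 and 41.4 CPM at 24 h, against 23.4 and 24.2 CPM at 16 h. For CDX2 the log2 change was 0.98 (adjusted p = 0.0162). APLNR, the apelin receptor, had 7.77 and 6.42 CPM at 24 h, against 2.35 and 3.52 CPM at 16 h. For APLNR the log2 change was 1.17 (adjusted p = 0.0123). FGF4, a ligand of the streak, had 2.09 and 0.901 CPM at 24 h, against 0.649 and 0.363 CPM at 16 h. For FGF4 the log2 change was 1.5 (adjusted p = 0.035). MSGN1 and TBX6, which mark the later presomitic mesoderm, stayed at most at 0.398 and 2.63 CPM. The calls of MIXL1, CDX2, APLNR and FGF4 were lost in the fits named here, each of which left 1 library in a group. The log2 change of MIXL1 stayed near its full value, at 1.07 and 1.2 without CHIR 16 h replicates 1 and 2. Without CHIR 24 h replicates 1 and 2 it was 1.14 and 1.14. CDX2 had 0.80 without CHIR 24 h replicate 1, and 0.96 and 0.99 without CHIR 16 h replicates 1 and 2. APLNR had 1.06 and 1.33 without CHIR 24 h replicates 1 and 2, and 0.98 and 1.54 without CHIR 16 h replicates 1 and 2. FGF4 went from 1.5 to 0.96 without CHIR 24 h replicate 1 and to 0.99 without CHIR 16 h replicate 2. Over the list, 1 to 3 members remained past the threshold when a library was left out, with 1 member without CHIR 16 h replicate 2 or CHIR 24 h replicate 1.

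POU5F1, which encodes the stem cell factor OCT4, had 689.8 and 772 CPM in the 24 h libraries, against 657 and 724 CPM in the 16 h libraries. For POU5F1 the log2 change was 0.08 ± 0.10 (adjusted p = 0.737). NANOG had 92.7 and 118 CPM at 24 h, against 93.7 and 92.2 CPM at 16 h. For NANOG the log2 change was 0.19 ± 0.23 (adjusted p = 0.732). SOX2 had 115 and 119.9 CPM at 24 h, against 135 and 122 CPM at 16 h. For SOX2 the log2 change was -0.13 ± 0.15 (adjusted p = 0.706). None of the 3 passed. Of 22 primed pluripotency genes, 3 fell and 1 rose, beside 4.19% of all genes lower and 3.9% higher. The fallers were LEFTY1, a NODAL antagonist (1.09 and 1.37 CPM at 24 h, against 4.71 and 4.25 CPM at 16 h; -1.8 log2, adjusted p = 0.00315), TERF1, a telomere-binding protein (-0.62 log2, adjusted p = 0.00356), and DNMT3B, a de novo DNA methyltransferase (307 and 292 CPM at 24 h, against 388 and 424 CPM at 16 h; -0.44 log2, adjusted p = 0.00444). DNMT3A, its relative, fell as well, with 61.7 and 64.3 CPM at 24 h, against 99.7 and 106 CPM at 16 h. For DNMT3A the log2 change was -0.71 (adjusted p = 0.00138). The riser was OTX2, a homeobox factor (17.5 and 17.7 CPM at 24 h, against 11.1 and 10.7 CPM at 16 h; 0.69 log2, adjusted p = 0.025). DNMT3A kept its call whichever library was left out, while LEFTY1 lost its call without CHIR 24 h replicate 2 (adjusted p = 0.0519), TERF1 without CHIR 24 h replicate 1 (adjusted p = 0.062), DNMT3B without CHIR 24 h replicate 2 (adjusted p = 0.076), and OTX2 without CHIR 24 h replicate 1 (adjusted p = 0.0954), without CHIR 24 h replicate 2 (adjusted p = 0.138), without CHIR 16 h replicate 1 (adjusted p = 0.0693) or without CHIR 16 h replicate 2 (adjusted p = 0.192).

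Many genes of glycolysis and some of the response to low oxygen rose. Many of the genes listed are known targets of the HIF transcription factors, which move cells towards lactate production. Of 24 hypoxia and glycolysis genes tested, 13 rose and none fell, beside 3.9% of all genes higher, with a median log2 change of 0.46. The other members did not pass. Among them were the low-oxygen response genes ADM (-0.07 log2), EGLN3 (0.14 log2), CA9 (0.80 log2) and ANKRD37 (1.14 log2). BNIP3, a mitophagy receptor, had 349.6 and 372 CPM in the 24 h libraries, against 106 and 118 CPM in the 16 h libraries. For BNIP3 the log2 change was 1.68 ± 0.15 (SE, adjusted p = 6.29e-09). PDK1, a kinase that inhibits pyruvate dehydrogenase, had 345 and 361 CPM in the 24 h libraries, against 124 and 125 CPM in the 16 h libraries. For PDK1 the log2 change was 1.51 ± 0.13 (adjusted p = 6.29e-09). The glucose transporters SLC2A1 and SLC2A3 rose too. SLC2A1 had 404 and 507 CPM at 24 h, against 169.9 and 195 CPM at 16 h. For SLC2A1 the log2 change was 1.32 ± 0.24 (adjusted p = 0.00151). SLC2A3 had 1356 and 1489 CPM at 24 h, against 748 and 729 CPM at 16 h. For SLC2A3 the log2 change was 0.95 ± 0.19 (adjusted p = 0.00212). LDHA, the lactate dehydrogenase subunit, had 965 and 994 CPM at 24 h, against 536 and 541 CPM at 16 h. For LDHA the log2 change was 0.86 ± 0.12 (adjusted p = 1.42e-05). PGK1, a glycolytic kinase, had 954 and 1078 CPM at 24 h, against 702 and 617 CPM at 16 h. For PGK1 the log2 change was 0.62 (adjusted p = 0.000715). All of these separated the times without overlap. SLC16A3, which exports lactate and is not a member of the list, had 65.8 and 84.2 CPM in the 24 h libraries, against 12.3 and 10.1 CPM in the 16 h libraries. For SLC16A3 the log2 change was 2.77 ± 0.22 (SE, adjusted p = 6.29e-09). Further genes outside the list, named after their values were seen, were PGM1, which links glycogen and glucose metabolism (208 and 253 CPM at 24 h, against 69.5 and 77.8 CPM at 16 h; 1.65 log2, adjusted p = 1.63e-08), and P4HA1, a collagen prolyl hydroxylase (135 and 150.5 CPM at 24 h, against 62.3 and 55.7 CPM at 16 h; 1.28 log2, adjusted p = 1.76e-05). HIF1A itself had 186 and 216 CPM at 24 h, against 204 and 194 CPM at 16 h and did not pass (0.02 ± 0.17 log2), and neither did GAPDH (2868 and 3155 CPM at 24 h, against 2483 and 2475 CPM at 16 h; 0.28 log2, adjusted p = 0.094). The list kept 11, 6, 11 and 8 risers when CHIR 24 h replicate 1, CHIR 24 h replicate 2, CHIR 16 h replicate 1 and CHIR 16 h replicate 2 were left out in turn, with none lower.

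The start region of BNIP3 is shown because BNIP3 and PDK1 had the smallest adjusted p of the hypoxia list, and because it holds the core letters of the HIF element. It is the minus strand of GRCh38.p14, chr10:131981874-131982173, from 250 bases before to 50 bases after the start, from RefSeq, with capitals at matches to ACGTG on either strand.
BNIP3: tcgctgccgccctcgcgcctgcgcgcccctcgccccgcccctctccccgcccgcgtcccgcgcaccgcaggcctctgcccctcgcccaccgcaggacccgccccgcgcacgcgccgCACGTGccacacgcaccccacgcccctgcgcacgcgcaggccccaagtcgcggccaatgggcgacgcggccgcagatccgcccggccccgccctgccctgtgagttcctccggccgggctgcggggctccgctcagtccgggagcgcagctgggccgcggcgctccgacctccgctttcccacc
The pair of matches overlap in the palindrome. ACGTG, a word chosen after the values were seen, was in 4 of the 10 risen list members with a window (ALDOA, BNIP3, LDHA and PGK1), beside 21.6% of all windows, 29% of the risen and 29.4% of the fallen genes. It was also in 4 of the 9 fallen genes of the endoplasmic reticulum list described below (44.4%).

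Some genes that slow proliferation or answer stress were among the risers; they are given singly, and their number describes no group. CDKN1A, the cyclin-dependent kinase inhibitor p21, had 30.2 and 32.6 CPM in the 24 h libraries, against 7.14 and 8.46 CPM in the 16 h libraries. For CDKN1A the log2 change was 2.0 ± 0.23 (SE, adjusted p = 1.06e-06). BTG2, given above, is another. SESN1, a stress sensor upstream of mTORC1, had 43.3 and 44.7 CPM at 24 h, against 17.9 and 19.4 CPM at 16 h. For SESN1 the log2 change was 1.24 ± 0.17 (adjusted p = 1.42e-05). RRM2B, a subunit of ribonucleotide reductase, had 76.4 and 77.7 CPM at 24 h, against 37.6 and 37.5 CPM at 16 h. For RRM2B the log2 change was 1.04 ± 0.17 (adjusted p = 0.000179). PHLDA3, an inhibitor of AKT, had 17.9 and 24.5 CPM at 24 h, against 8.28 and 7.41 CPM at 16 h. For PHLDA3 the log2 change was 1.46 ± 0.24 (adjusted p = 0.000169). TNFRSF10B, a death receptor, had 86.9 and 101 CPM at 24 h, against 53.7 and 56.3 CPM at 16 h. For TNFRSF10B the log2 change was 0.78 (adjusted p = 0.000139). These genes kept their calls without each of the 4 libraries. MIR34AHG, the host transcript of the microRNA miR-34a, named after its values were seen, had 7.57 and 8.29 CPM at 24 h, against 2.19 and 1.85 CPM at 16 h. For MIR34AHG the log2 change was 1.99 ± 0.38 (adjusted p = 0.00093). GDF15, a stress cytokine with 3.19 and 3.64 CPM at 24 h, against 0.649 and 1.31 CPM at 16 h (1.72 log2, adjusted p = 0.0139), lost its call without CHIR 24 h replicate 2 (adjusted p = 0.117) or without CHIR 16 h replicate 1 (adjusted p = 0.124).

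Of the genes that handle zinc, a zinc exporter had the largest change. SLC30A1, which exports zinc across the plasma membrane, had 83.5 and 79.3 CPM in the 24 h libraries, against 13.1 and 11.2 CPM in the 16 h libraries. For SLC30A1 the log2 change was 2.76 ± 0.28 (SE, adjusted p = 4.41e-07). The metallothioneins, small proteins that bind zinc, split: of 9 genes in the list, SLC30A1 and MT1X rose (56.9 and 72.3 CPM at 24 h, against 41.9 and 36.8 CPM at 16 h; MT1X 0.72 log2, adjusted p = 0.0207), while MT1M (0.597 and 0.793 CPM at 24 h, against 3.0 and 2.72 CPM at 16 h; -1.98 log2, adjusted p = 0.00696) and MT1H (16.4 and 20.6 CPM at 24 h, against 32.1 and 32.5 CPM at 16 h; -0.79 log2, adjusted p = 0.00952) fell. The metallothionein calls did not hold without every library: MT1X was lost without CHIR 24 h replicate 2 (adjusted p = 0.254) or without CHIR 16 h replicate 2 (adjusted p = 0.207), MT1M without CHIR 24 h replicate 1 (adjusted p = 0.0732) or without CHIR 24 h replicate 2 (adjusted p = 0.068), and MT1H without CHIR 24 h replicate 1 (adjusted p = 0.146) or without CHIR 16 h replicate 2 (adjusted p = 0.0568). Metallothionein copies are near-identical, so reads may be split among them.

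Messenger RNAs of the translation apparatus rose by small amounts in many cases. Of 30 cytosolic ribosomal protein genes tested, 19 rose and none fell, beside 3.9% of all genes higher and 4.19% lower. All 30 estimates were positive, from 0.10 to 0.67, with a median log2 change of 0.36. RPS27 had 624 and 665 CPM at 24 h, against 455 and 356 CPM at 16 h. For RPS27 the log2 change was 0.67 ± 0.11 (adjusted p = 0.000179). RPS18 had 1150.0 and 1219 CPM at 24 h, against 856 and 759 CPM at 16 h. For RPS18 the log2 change was 0.55 ± 0.11 (adjusted p = 0.00225). RPL27 had 396 and 407 CPM at 24 h, against 304 and 259 CPM at 16 h. For RPL27 the log2 change was 0.51 ± 0.10 (adjusted p = 0.00148). Their groups did not overlap. A list of 21 snoRNA host genes and translation factors, which are known to carry the same pyrimidine-rich 5′ ends and which was chosen after the values were seen, gave 11 rises and 1 fall. The rises numbered 3, 2, 5 and 3 when CHIR 24 h replicate 1, CHIR 24 h replicate 2, CHIR 16 h replicate 1 and CHIR 16 h replicate 2 were left out in turn. ZFAS1, a noncoding snoRNA host, had 118 and 123 CPM at 24 h, against 70.3 and 60.6 CPM at 16 h. For ZFAS1 the log2 change was 0.88 ± 0.11 (adjusted p = 6.17e-06). GAS5, another host, had 302 and 323 CPM at 24 h, against 214 and 181 CPM at 16 h. For GAS5 the log2 change was 0.66 ± 0.13 (adjusted p = 0.0015). PABPC1, the poly(A)-binding protein, was the faller (644 and 626 CPM at 24 h, against 844 and 1089 CPM at 16 h; -0.61 log2, adjusted p = 0.00498), a call lost without CHIR 24 h replicate 2 (adjusted p = 0.0651) or without CHIR 16 h replicate 2 (adjusted p = 0.171). EIF4A2, a translation helicase outside these lists and named after its values were seen, had 571 and 546 CPM at 24 h, against 275 and 235 CPM at 16 h. For EIF4A2 the log2 change was 1.13 ± 0.12 (adjusted p = 1.97e-07). The ribosomal protein calls rest on small differences: 11, 4, 12 and 3 were called when CHIR 24 h replicate 1, CHIR 24 h replicate 2, CHIR 16 h replicate 1 and CHIR 16 h replicate 2 were left out in turn, at medians of 0.31 to 0.43. RPS18 was lost without CHIR 16 h replicate 2 (adjusted p = 0.0562), and RPL27 without CHIR 16 h replicate 2 (adjusted p = 0.0578). Ribosomal protein genes have many processed copies in the genome that share their reads, which makes single genes uncertain.

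Some genes that build ribosomes fell. Of 23 ribosome biogenesis genes, 6 fell, none rose and the other 17 did not pass, with a median log2 change of -0.22. UTP20, a processing factor of the small subunit, had 76.3 and 73.2 CPM at 24 h, against 124 and 129.9 CPM at 16 h. For UTP20 the log2 change was -0.76 ± 0.14 (adjusted p = 0.000565). POLR1A, the largest subunit of RNA polymerase I, had 57.5 and 61 CPM at 24 h, against 85.5 and 109 CPM at 16 h. For POLR1A the log2 change was -0.71 ± 0.14 (adjusted p = 0.000951). RRP12 had 53.6 and 57.5 CPM at 24 h, against 83.6 and 91.3 CPM at 16 h. For RRP12 the log2 change was -0.65 (adjusted p = 0.00167). NOLC1, a nucleolar protein, had 169 and 166 CPM at 24 h, against 242 and 254 CPM at 16 h. For NOLC1 the log2 change was -0.56 (adjusted p = 0.00163). These 4 kept their calls without each library. Between 4 and 5 members remained called when a library was left out, down to 4 without either CHIR 24 h replicate. Among cell cycle genes, 6 of 24 G2-M genes rose and none fell, with 0.57 log2 for PTTG1, which encodes securin (adjusted p = 0.0021). Of 24 S phase genes, 2 fell (CLSPN and MCM6). Over all genes tested 3.9% were higher and 4.19% lower, so this S phase count is not read as a result about these genes. The G2-M count went to 3, 1, 2 and 2, and the S phase count to 2, 1, 3 and 0, when CHIR 24 h replicate 1, CHIR 24 h replicate 2, CHIR 16 h replicate 1 and CHIR 16 h replicate 2 were left out in turn. With CHIR-arm libraries only 11 S phase genes fell, with a replicate block in that arm 12, and with DESeq2 7.

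Part of the molecular chaperones fell. They were grouped in lists chosen after the values were seen, so their counts describe the step and support nothing further. Of 24 cytosolic chaperone genes, 10 fell and none rose, beside 4.19% of all genes lower and 3.9% higher. HSPA1B, an inducible HSP70, had 25.6 and 34.7 CPM in the 24 h libraries, against 128 and 133 CPM in the 16 h libraries, and fell by 2.1 ± 0.22 on the log2 scale (adjusted p = 6.11e-07). HSPA1A had 16.2 and 16 CPM at 24 h, against 43.7 and 49.8 CPM at 16 h (-1.54 ± 0.18 log2, adjusted p = 1.61e-06); both genes encode nearly the same mRNA and reads may be split between them. HSPH1, an HSP110 nucleotide exchange factor, had 107 and 102 CPM at 24 h, against 220.1 and 227 CPM at 16 h. For HSPH1 the log2 change was -1.1 ± 0.14 (adjusted p = 7.99e-06). DNAJA1, an HSP40 cochaperone, had 113 and 121 CPM at 24 h, against 205 and 201 CPM at 16 h. For DNAJA1 the log2 change was -0.79 ± 0.14 (adjusted p = 0.000478). Without CHIR 16 h replicate 2 or either CHIR 24 h replicate, 6 of the 10 were called. HSP90AB1, the constitutive HSP90, had 2797 and 2992 CPM at 24 h, against 2490.0 and 2381 CPM at 16 h and did not pass (0.25 log2, adjusted p = 0.176).

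Chaperones of the endoplasmic reticulum, which fold secreted proteins, also fell in part. Of 22 such genes and unfolded protein response factors, 9 fell and none rose, beside 4.19% of all genes lower and 3.9% higher. HSPA5, the chaperone BiP, had 179 and 168 CPM in the 24 h libraries, against 458 and 507 CPM in the 16 h libraries, and fell by 1.48 ± 0.14 on the log2 scale (adjusted p = 1.57e-08). CRELD2 had 4.38 and 5.7 CPM at 24 h, against 13.2 and 13.9 CPM at 16 h. For CRELD2 the log2 change was -1.4 ± 0.18 (adjusted p = 9.22e-06). SDF2L1 had 7.27 and 7.97 CPM at 24 h, against 16.3 and 14.8 CPM at 16 h. For SDF2L1 the log2 change was -1.02 (adjusted p = 0.00277). MANF had 27.2 and 28.9 CPM at 24 h, against 50.6 and 49.5 CPM at 16 h. For MANF the log2 change was -0.83 (adjusted p = 0.00121). All 4 are induced when the endoplasmic reticulum is stressed, and all 4 kept their calls without each library. The list kept 7 to 9 fallers when a library was left out. In the amino acid and ATF4 list, 4 of 23 genes fell and 1 rose; 8 fell and 3 rose with DESeq2, and 8 and 5 with CHIR-arm libraries only. SLC7A5, a carrier of large neutral amino acids, had 190.2 and 224 CPM at 24 h, against 494 and 603 CPM at 16 h. For SLC7A5 the log2 change was -1.41 ± 0.22 (adjusted p = 0.000237). PSAT1, an enzyme of serine synthesis, had 251 and 281 CPM at 24 h, against 458 and 405 CPM at 16 h. For PSAT1 the log2 change was -0.70 (adjusted p = 0.000208). VLDLR, a lipoprotein receptor, was the riser (54.1 and 54.7 CPM at 24 h, against 25.3 and 25 CPM at 16 h; 1.11 log2, adjusted p = 2.85e-05), and ATF4 did not pass (348 and 395 CPM at 24 h, against 326 and 315 CPM at 16 h; 0.21 log2, adjusted p = 0.279).

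The start region of HSPA5 is shown because the gene had the largest fall of its list and carries the element through which unfolded proteins are known to induce it. It is the minus strand of GRCh38.p14, chr9:125241294-125241593, over the same window, from RefSeq. Capitals mark a match to the word CCAAT, then any 9 bases, then CCACG, searched on both strands.
HSPA5: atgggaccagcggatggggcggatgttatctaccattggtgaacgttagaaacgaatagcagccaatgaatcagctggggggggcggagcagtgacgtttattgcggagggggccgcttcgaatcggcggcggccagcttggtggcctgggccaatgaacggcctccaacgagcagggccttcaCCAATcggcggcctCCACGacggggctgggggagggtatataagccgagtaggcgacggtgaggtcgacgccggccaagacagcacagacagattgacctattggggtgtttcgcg
This word was also chosen after the values were seen. It was in 3 of the 9 fallen members of the endoplasmic reticulum list (CRELD2, HSPA5 and XBP1), and in 22 of 27305 windows overall (0.0806%). It was in 0.508% of the fallen, 0.0% of the risen and 0.113% of all matched genes. Its second part alone, CCACG, was in 37.9% of all windows. Among the 10 fallen cytosolic chaperones, 4 held GAANNTTC, the core of the heat shock element, beside 6.87% of all windows. These were DNAJA1, HSPA1A, HSPA1B and HSPA8. The HSPA8 call was lost whichever of the 4 libraries was left out. GAANNTTC, also chosen after the values were seen, was in 5.99% of the risen, 5.34% of the fallen and 5.0% of all matched genes. The choice of lists and words favours such matches, and their part in the falls was not tested.

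Some genes of RNA-binding proteins of splicing fell. Of 30 SR, hnRNP and related protein genes, in a list chosen after the values were seen, 8 fell and 1 rose. Over all genes, 4.19% were lower and 3.9% higher. The other members did not pass, 10 of the 30 estimates were positive, and the median log2 change was -0.11. The count describes the step and supports nothing further. SRSF1, an SR protein, had 183 and 189 CPM at 24 h, against 423 and 442 CPM at 16 h. For SRSF1 the log2 change was -1.22 ± 0.11 (adjusted p = 6.29e-09). TARDBP, which encodes TDP-43, had 83 and 80.6 CPM at 24 h, against 145 and 142 CPM at 16 h. For TARDBP the log2 change was -0.81 ± 0.12 (adjusted p = 5.32e-05). Both kept their calls without each library, and 5 or 6 members of the list did so when a library was left out, down to 5 without CHIR 16 h replicate 2 or either CHIR 24 h replicate. Further strong fallers, named after their values were seen, were PSME3, a proteasome activator (59.6 and 57 CPM at 24 h, against 121 and 172 CPM at 16 h; -1.34 log2, adjusted p = 4.05e-07), TFRC, the transferrin receptor (76.2 and 90.2 CPM at 24 h, against 169 and 184 CPM at 16 h; -1.08 log2, adjusted p = 7.14e-07), GPC4, a glypican (187 and 183 CPM at 24 h, against 329 and 387 CPM at 16 h; -0.96 log2, adjusted p = 3.06e-06), and EZH2, the methyltransferase of Polycomb complex PRC2 (26.1 and 24.8 CPM at 24 h, against 44.5 and 52.8 CPM at 16 h; -0.94 log2, adjusted p = 4.89e-05).

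A few genes of the epithelial to mesenchymal transition moved. Of 19 EMT and mesenchymal genes tested, 3 rose and 1 fell, beside 3.9% of all genes higher and 4.19% lower. The faller, FN1 (fibronectin; -0.50 log2, adjusted p = 0.0459), lost its call without CHIR 24 h replicate 1 (adjusted p = 0.345), without CHIR 24 h replicate 2 (adjusted p = 0.0777), without CHIR 16 h replicate 1 (adjusted p = 0.0798) or without CHIR 16 h replicate 2 (adjusted p = 0.298), and the riser CDH11, a mesenchymal cadherin (0.79 log2, adjusted p = 0.0112), without CHIR 24 h replicate 2 (adjusted p = 0.104), without CHIR 16 h replicate 1 (adjusted p = 0.0932) or without CHIR 16 h replicate 2 (adjusted p = 0.0583). CDH2, N-cadherin, had 149.5 and 145 CPM in the 24 h libraries, against 61.5 and 64 CPM in the 16 h libraries. For CDH2 the log2 change was 1.23 ± 0.12 (SE, adjusted p = 2.53e-08). VIM, the intermediate filament vimentin, had 378 and 418 CPM in the 24 h libraries, against 193 and 198 CPM in the 16 h libraries. For VIM the log2 change was 1.02 ± 0.14 (adjusted p = 1.36e-05). CDH1, E-cadherin, had 323 and 332 CPM at 24 h, against 265 and 320.0 CPM at 16 h and did not pass (0.16 ± 0.19 log2, adjusted p = 0.711), and EPCAM, another epithelial adhesion molecule, had 127 and 139 CPM at 24 h, against 145 and 151 CPM at 16 h. For EPCAM the log2 change was -0.15 (adjusted p = 0.518). Of 22 epithelial junction and polarity genes, 4 fell and none rose, among them TJP1, the tight junction scaffold ZO-1 (144 and 142 CPM at 24 h, against 194 and 218 CPM at 16 h; -0.53 log2, adjusted p = 0.00242). Without CHIR 16 h replicate 2 or either CHIR 24 h replicate, 2 of these 4 were called; 1 gene rose without CHIR 16 h replicate 1, 2 with DESeq2 and 4 with CHIR-arm libraries only. In signalling, 3 of 15 FGF family genes rose, beside 3.9% of all genes. FGF13 had 44.9 and 45.9 CPM at 24 h, against 20.5 and 16.1 CPM at 16 h (1.32 log2, adjusted p = 1.94e-06). FGF11 had 43 and 45.5 CPM at 24 h, against 19.1 and 20.7 CPM at 16 h (1.15 log2, adjusted p = 4.8e-06). Both encode FGF proteins that stay in the cell. The other riser was the ligand FGF4, at the low levels given above. ETV5, an ETS factor induced by ERK, had 43.5 and 48.2 CPM at 24 h, against 27.4 and 28.7 CPM at 16 h. For ETV5 the log2 change was 0.71 (adjusted p = 0.000615). IFITM1, an interferon-induced membrane protein named after its values were seen, had 172 and 169.5 CPM at 24 h, against 71.2 and 58.5 CPM at 16 h. For IFITM1 the log2 change was 1.4 ± 0.12 (adjusted p = 6.29e-09). In edgeR's test 0 of 14 interferon response genes, 0 of 13 mitochondrially encoded mRNAs and 0 of 15 genes of beta-catenin and its destruction complex were called; at an unadjusted p below 0.05 there were 3, 1 and 2, and DESeq2 called 0, 1 and 1. Of the mitochondrial mRNAs, 2 were higher and 4 lower with CHIR-arm libraries only, 2 and 2 with the replicate block, 1 and 5 in a fit of the 4 libraries alone, and 1 and 0 without CHIR 16 h replicate 1. Of the genes of beta-catenin and its destruction complex, 1 was higher and 1 lower with CHIR-arm libraries only, and 1 interferon response gene was lower without CHIR 24 h replicate 1.

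**Figure D3:**
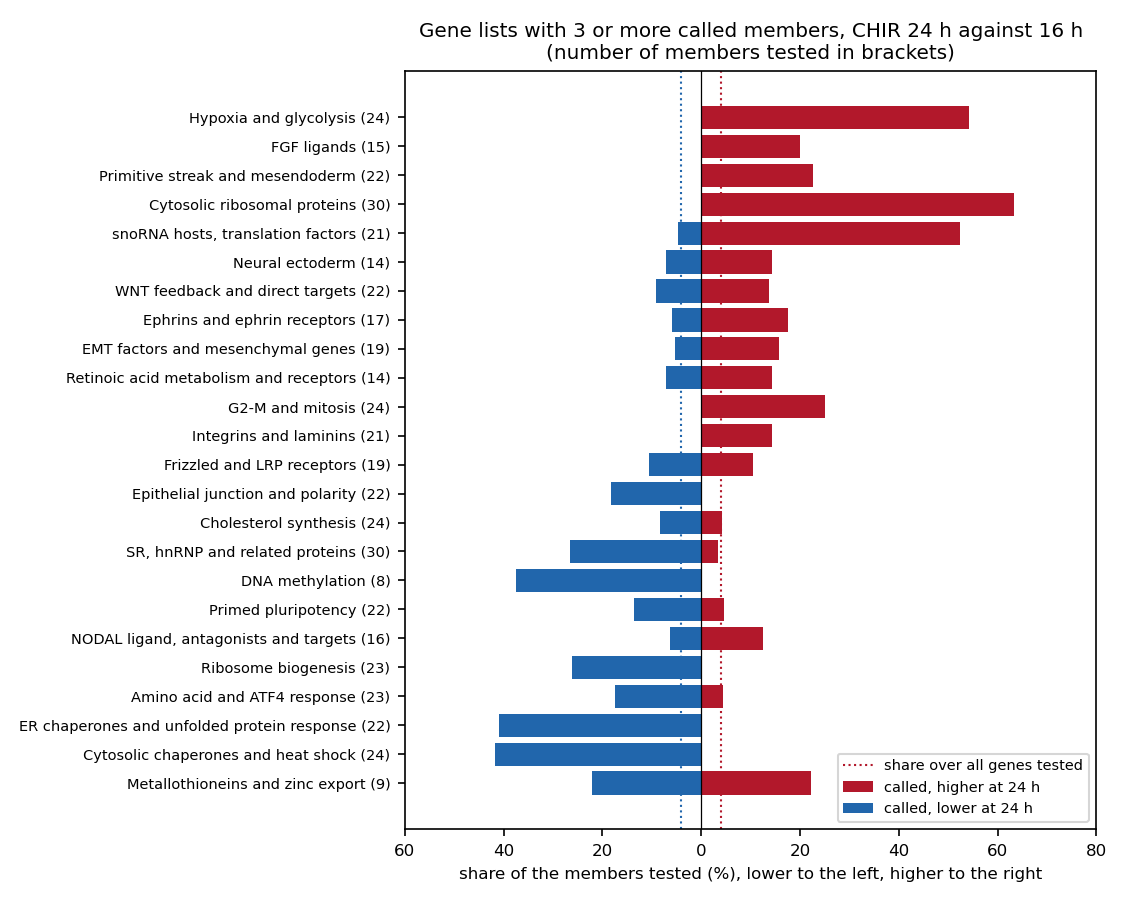
Share of the members tested (%) that were called higher at 24 h (red, to the right) or lower (blue, to the left) for the gene lists drawn, a part of those with at least 3 called members, ordered by median log2 change, with the number of members tested in brackets. Dotted lines mark the shares over all genes tested, 3.9% higher and 4.19% lower; of the lists drawn, ribosomal proteins and hypoxia genes reach furthest right, and the chaperone lists furthest left.

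Several genes that do not code for protein moved by large factors. LINC00458, a long noncoding RNA of pluripotent cells, had 24.1 and 15 CPM at 24 h, against 3.57 and 2.87 CPM at 16 h. For LINC00458 the log2 change was 2.6 ± 0.21 (adjusted p = 3.43e-09). LINC01356 had 31.2 and 27.9 CPM at 24 h, against 5.11 and 5.59 CPM at 16 h. For LINC01356 the log2 change was 2.44 ± 0.20 (adjusted p = 3.43e-09). Both separated the times without overlap, which the rule for naming them required. CCDC150P1, a pseudogene, fell, with 3.19 and 3.68 CPM at 24 h, against 9.82 and 10 CPM at 16 h. For CCDC150P1 the log2 change was -1.51 ± 0.19 (adjusted p = 4.03e-06).

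The length and base composition of transcripts moved with the calls. The longest annotated transcript had a median of 2960 bases in risen, 4337 bases in fallen and 3342 bases in all tested protein-coding genes. In 5 equal groups of genes from the shortest to the longest, among genes with a mean of at least 5 CPM, the share called higher was 8.93%, 7.32%, 6.39%, 4.82% and 4.4%, and the share called lower 4.54%, 6.40%, 8.24%, 10.5% and 11%. Median GC content was 48.4% in risen, 51.3% in fallen and 49.3% in all tested genes. Ribosomal protein genes are short and are among the risers; without them the risen genes still had a median of 3048 bases. The part of transcript length in the group results above was not tested.

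The same interval in the arm with induced beta-catenin changed fewer genes, and the steps differed at many of the genes above. From bcat 16 h to bcat 24 h, 141 genes rose (0.58% of genes tested) and 193 fell (0.794%), 1.37% in all. The step itself was compared between the arms with an interaction term, CHIR step minus bcat step. It called 614 genes (2.53%), 320 more positive (1.32%) and 294 more negative (1.21%) with CHIR99021. The shares of each comparison are the background for its list counts below. The arms differ in line, agent and library composition: ribosomal RNA took 60.4% and 14.4% of counts at bcat 24 h and 19.1% and 25% at bcat 16 h, and mitochondrial transcripts 12.8% to 13.2% at CHIR 24 h and 10.2% to 11.4% at CHIR 16 h, but at most 1.3% in the 4 bcat libraries. Their part in the difference was not tested. Without the 4 libraries of the series in doubt for their composition or depth, bcat 24 h replicate 1 among them, 127 genes were called in the bcat step and 334 in the difference. The bcat step gave 111, 168, 67 and 178 calls without bcat 24 h replicate 1, bcat 24 h replicate 2, bcat 16 h replicate 1 and bcat 16 h replicate 2. Without each of the 8 libraries in turn, the difference gave 213 (without CHIR 16 h replicate 2) to 625 calls (without CHIR 16 h replicate 1); 297 and 269 were called without CHIR 24 h replicates 1 and 2, 294 and 280 without bcat 16 h replicates 1 and 2, and 273 and 426 without bcat 24 h replicates 1 and 2.

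Hypoxia and glycolysis genes differed between the arms. Of 24, 15 were called more positive with CHIR99021 in the interaction and none more negative, beside 1.32% of all genes, and the median log2 change was 0.46 in the CHIR step and -0.20 in the bcat step, where 3 fell and none rose. Without bcat 24 h replicate 1 the list had 12 such differences and no fall in the bcat step, and without the other libraries between 5 (without CHIR 24 h replicate 2) and 11; the count was 8 for bcat 24 h replicate 2 or bcat 16 h replicate 2, 9 for CHIR 16 h replicate 1 and 10 for CHIR 16 h replicate 2 or bcat 16 h replicate 1. BNIP3 had 182 and 137 CPM at bcat 24 h, against 162 and 172 CPM at bcat 16 h, a log2 change of -0.07 ± 0.14 there, and the steps differed by 1.75 ± 0.20 (SE, adjusted p = 8.65e-06). For SLC16A3, with 42.7 and 26.7 CPM at bcat 24 h, against 40.7 and 58.3 CPM at bcat 16 h, the steps differed by 3.28 ± 0.30 (adjusted p = 9.17e-07). PGK1 moved in opposite directions, with a log2 change of 0.62 in the CHIR step and -0.61 in the bcat step (adjusted p = 0.0027; difference 1.24 ± 0.16, adjusted p = 3.74e-05). The PGK1 fall in the bcat step was lost without bcat 24 h replicate 1 (adjusted p = 0.0916) or without bcat 16 h replicate 1 (adjusted p = 0.125). BTG2 differed by 2.07 ± 0.28 (adjusted p = 5.96e-05), while CDKN1A rose in both arms, with 6.2 and 7.56 CPM at bcat 24 h, against 2.47 and 3.24 CPM at bcat 16 h (1.34 ± 0.26 log2, adjusted p = 0.00316; difference 0.65 ± 0.34, adjusted p = 0.401). Ribosomal protein genes had a median log2 change of -0.10 in the bcat step with no call, and 8 of 30 differed, a count that went to 1 when bcat 24 h replicate 1 or bcat 16 h replicate 1 was left out, to 2 for bcat 16 h replicate 2, to 4 for CHIR 24 h replicate 1 and to 0 for CHIR 24 h replicate 2 or CHIR 16 h replicate 2. The CDKN1A rise in the bcat step was lost without bcat 24 h replicate 2 (adjusted p = 0.0829) or without bcat 16 h replicate 1 (adjusted p = 0.274). ERK feedback genes had a median of 0.28 in the CHIR step and -0.42 in the bcat step, and 7 of 17 differed, all more positive with CHIR99021 (3 without CHIR 24 h replicate 1 or CHIR 16 h replicate 2, 4 when 1 of the bcat 24 h replicates was left out, 2 without bcat 16 h replicate 1); ETV5 moved in opposite directions (0.71 and -0.75 log2; difference 1.46 ± 0.18, adjusted p = 2.61e-05).

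Some streak and pluripotency genes differed between the arms, in both directions. Over all genes, 1.32% were more positive and 1.21% more negative with CHIR99021. Of 22 streak genes 6 were more positive and 1 more negative with CHIR99021 (3 to 6 and 0 to 2 when 1 of the 8 libraries was left out, with 3 more positive without CHIR 16 h replicate 2, bcat 24 h replicate 2 or bcat 16 h replicate 1). Of 22 primed pluripotency genes 2 were more positive and 2 more negative, with a median difference of -0.07 (0 to 2 and 1 to 2 when 1 was left out). For T the steps differed by 1.48 ± 0.26 (adjusted p = 0.0018), with 15 and 12.3 CPM at bcat 24 h, against 16.6 and 16.8 CPM at bcat 16 h in the beta-catenin arm. NODAL, the ligand of the streak organiser, had 48.7 and 45.5 CPM at 24 h, against 67 and 65.3 CPM at 16 h with CHIR99021 (-0.49 log2, adjusted p = 0.176) and 15.6 and 14.8 CPM at bcat 24 h, against 76.9 and 74.1 CPM at bcat 16 h (-2.32 log2, adjusted p = 7.13e-07), a difference of 1.82 ± 0.31 (adjusted p = 0.00114). NANOG had 51.2 and 58.9 CPM at bcat 24 h, against 124 and 116 CPM at bcat 16 h (-1.12 log2, adjusted p = 0.0106; difference 1.31 ± 0.32, adjusted p = 0.030). The NANOG fall in the bcat step was lost without bcat 24 h replicate 1 (adjusted p = 0.167), without bcat 24 h replicate 2 (adjusted p = 0.0607) or without bcat 16 h replicate 1 (adjusted p = 0.144), and its difference without CHIR 24 h replicate 2 (adjusted p = 0.145), without CHIR 16 h replicate 1 (adjusted p = 0.0579), without CHIR 16 h replicate 2 (adjusted p = 0.112), without bcat 24 h replicate 1 (adjusted p = 0.129), without bcat 24 h replicate 2 (adjusted p = 0.058), without bcat 16 h replicate 1 (adjusted p = 0.106) or without bcat 16 h replicate 2 (adjusted p = 0.0737). SOX2 differed in the opposite direction, by -0.85 ± 0.21 (adjusted p = 0.0251), a call lost without CHIR 24 h replicate 1 (adjusted p = 0.102), without CHIR 24 h replicate 2 (adjusted p = 0.0808), without CHIR 16 h replicate 1 (adjusted p = 0.065), without bcat 24 h replicate 1 (adjusted p = 0.132) or without bcat 16 h replicate 2 (adjusted p = 0.13). CDX2 rose more in the beta-catenin arm, with 46 and 32.7 CPM at bcat 24 h, against 6.0 and 10.1 CPM at bcat 16 h (2.37 log2; difference -1.39 ± 0.37, adjusted p = 0.0452). The CDX2 difference was lost without CHIR 24 h replicate 1 (adjusted p = 0.0644), without CHIR 24 h replicate 2 (adjusted p = 0.184), without CHIR 16 h replicate 1 (adjusted p = 0.0781), without CHIR 16 h replicate 2 (adjusted p = 0.151), without bcat 24 h replicate 1 (adjusted p = 0.195) or without bcat 16 h replicate 1 (adjusted p = 0.301). AXIN2 and SP5 had 0.67 and 0.76 log2 in the bcat step, and neither passed there or in the difference (adjusted p = 0.348 and 0.551).

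Several changes were called in both arms. Cytosolic chaperones fell in 8 of 24 genes in the bcat step, or 6 without bcat 24 h replicate 1, 5 without bcat 24 h replicate 2 and 3 without bcat 16 h replicate 1. HSPH1 had 77.2 and 66 CPM at bcat 24 h, against 186 and 144 CPM at bcat 16 h (-1.21 ± 0.14 log2, adjusted p = 1.17e-05), HSPA1A had 21.7 and 18.8 CPM at bcat 24 h, against 60.4 and 42 CPM at bcat 16 h (-1.36 log2, adjusted p = 2.75e-05), and DNAJA1 had 132 and 119 CPM at bcat 24 h, against 248 and 206 CPM at bcat 16 h (-0.86 log2, adjusted p = 0.000587); their differences between the arms, 0.11 ± 0.20, -0.18 ± 0.25 and 0.06 ± 0.20, did not pass. In 2 of the 24 genes the step was more negative with CHIR99021, among them HSPA1B, by -1.3 ± 0.30 (adjusted p = 0.0163), a difference lost without CHIR 24 h replicate 1 (adjusted p = 0.0967), without CHIR 16 h replicate 2 (adjusted p = 0.0562), without bcat 24 h replicate 2 (adjusted p = 0.0648) or without bcat 16 h replicate 2 (adjusted p = 0.0856). SLC30A1 rose to 73.7 and 57.1 CPM at bcat 24 h, against 16.4 and 13.6 CPM at bcat 16 h (2.1 ± 0.27 log2, adjusted p = 5.01e-05; difference 0.66 ± 0.37). TEF, SRSF1 and WNT5B were called in the same direction in both arms, with 1.82, -0.79 and 1.0 log2 in the bcat step, and DKK1 with 1.93 (adjusted p = 0.0258). The bcat call of DKK1 was lost without bcat 24 h replicate 1 (adjusted p = 0.116), without bcat 24 h replicate 2 (adjusted p = 0.173), without bcat 16 h replicate 1 (adjusted p = 0.554) or without bcat 16 h replicate 2 (adjusted p = 0.0641), and that of DNAJA1 without bcat 16 h replicate 1 (adjusted p = 0.0599). Endoplasmic reticulum chaperones had no call in the bcat step, and HSPA5 differed between the arms by -0.98 ± 0.19 (adjusted p = 0.00353). CUZD1 (-2.05 ± 0.26, adjusted p = 2.61e-05) fell more with CHIR99021. Of the 948 risen genes, 37 also rose in the bcat step (3.90% of them and 26.2% of the bcat risers), and 5 fell there. Of the 1018 fallen genes, 71 also fell in the bcat step (6.97% of them and 36.8% of the bcat fallers), and 8 rose.

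**Figure D4:**
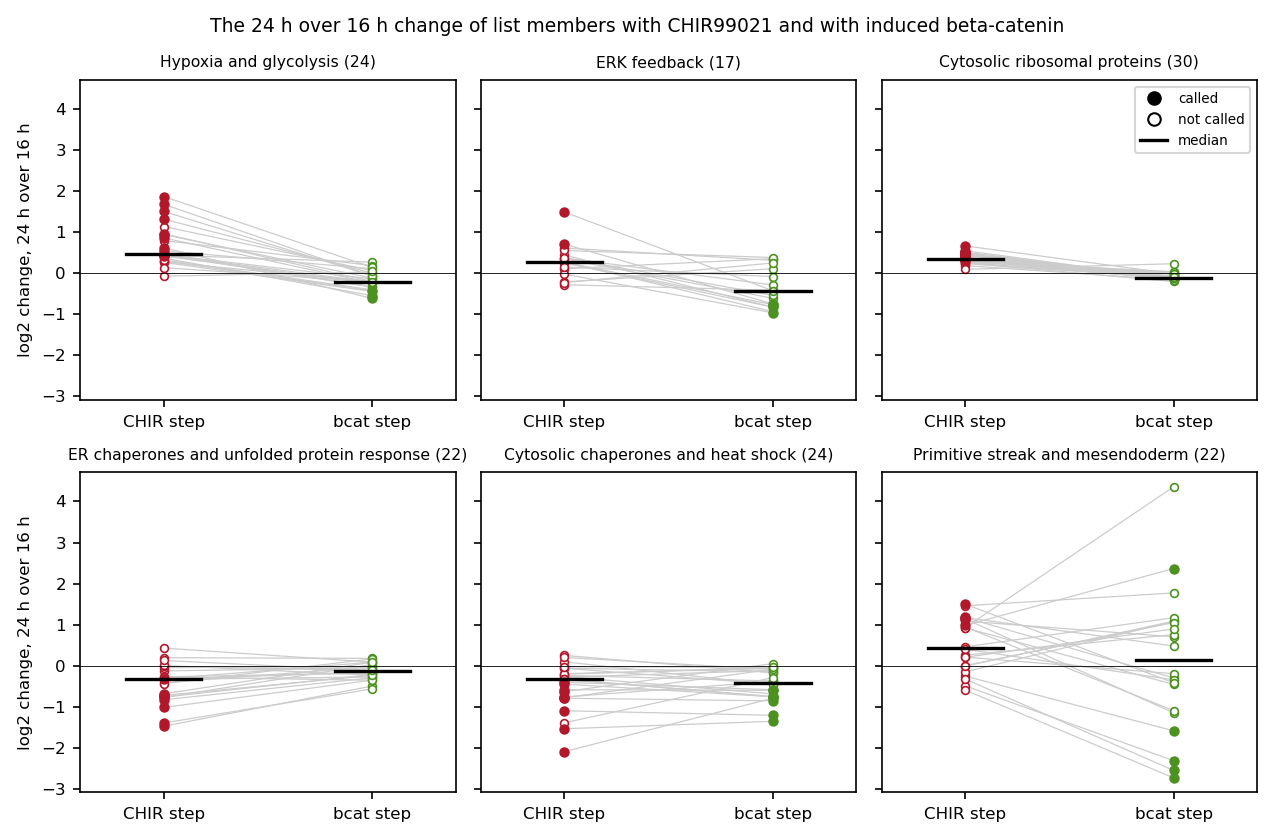
Log2 change from 16 h to 24 h of each member of 6 gene lists, in the CHIR step (left in each panel, red) and the bcat step (right, green), with grey lines joining a gene, filled points for called genes and black bars for medians. Hypoxia and glycolysis members sit at a median of 0.46 with CHIR99021 and -0.20 with induced beta-catenin, while cytosolic chaperones sit below 0 in both arms.

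The step was set in the wider course through CHIR 48 h and CHIR 8 h, which share no library with it and called 8871 genes (36.5%), 18.1% higher and 18.4% lower. Of the 948 risen genes, 568 were higher at 48 h than at 8 h (59.9% of them and 12.9% of all genes higher there) and 112 were lower. Of the 1018 fallen genes, 555 were lower at 48 h than at 8 h (54.5% of them and 12.4% of all genes lower there) and 92 were higher. Some rises stood within a longer climb. T had group means of 0.105 CPM at 0 h, 6.24 at 8 h, 31 at 16 h, 70 at 24 h, 141 at 48 h and 287 at 72 h, and DKK1 of 0.12 CPM at 0 h, 1.4 at 8 h, 3.95 at 16 h, 29.5 at 24 h, 1036 at 48 h and 532 at 72 h. NOTUM had 0.0296 CPM at 0 h, 0.855 at 8 h, 4.18 at 16 h, 9.98 at 24 h, 178 at 48 h and 75.3 at 72 h, and CDH2 39.2 CPM at 0 h, 34.2 at 8 h, 62.8 at 16 h, 147 at 24 h, 448 at 48 h and 451 at 72 h. In these genes the 24 h mean lay between the 16 h and 48 h means.

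Other genes took other courses. The 16 h mean was the lowest of the 6 CHIR times for 448 of 947 risen genes that carry a name (47.3%), beside 15.2% of all genes, and the highest for 478 of 1016 fallen genes (47.0%), beside 13.1%; the choice of genes by their 16 h libraries favours both shares. SLC30A1 had group means of 20.2 CPM at 0 h, 75.4 at 8 h, 12.1 at 16 h, 81.4 at 24 h, 9.75 at 48 h and 17.6 at 72 h, high at 8 h and 24 h and low at 16 h. IFITM1 had 141 CPM at 0 h, 95.7 at 8 h, 64.8 at 16 h, 171 at 24 h, 94.4 at 48 h and 136 at 72 h, with its lowest mean at 16 h. HSPA5 had 356 CPM at 0 h, 218 at 8 h, 482 at 16 h, 174 at 24 h, 242 at 48 h and 208 at 72 h, and HSPH1 had 221 CPM at 0 h, 151 at 8 h, 224 at 16 h, 104 at 24 h, 142 at 48 h and 109.9 at 72 h, both with their highest mean at 16 h, which for HSPH1 was close to that at 0 h. In a further set the lowest mean came at 8 h, before the step. BNIP3 had 238 CPM at 0 h, 80.8 at 8 h, 112 at 16 h, 361 at 24 h, 409 at 48 h and 279.7 at 72 h, PDK1 had 161 CPM at 0 h, 90.6 at 8 h, 124 at 16 h, 353 at 24 h, 406 at 48 h and 361 at 72 h, and CDKN1A had 18.6 CPM at 0 h, 7.18 at 8 h, 7.8 at 16 h, 31.4 at 24 h, 46.7 at 48 h and 26.8 at 72 h; for all 3 the 24 h mean was above the 0 h mean. IDO1 declined at each time up to 48 h, with 22.9 CPM at 0 h, 10.6 at 8 h, 6.32 at 16 h, 1.77 at 24 h, 0.116 at 48 h and 0.213 at 72 h.

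**Figure D5:**
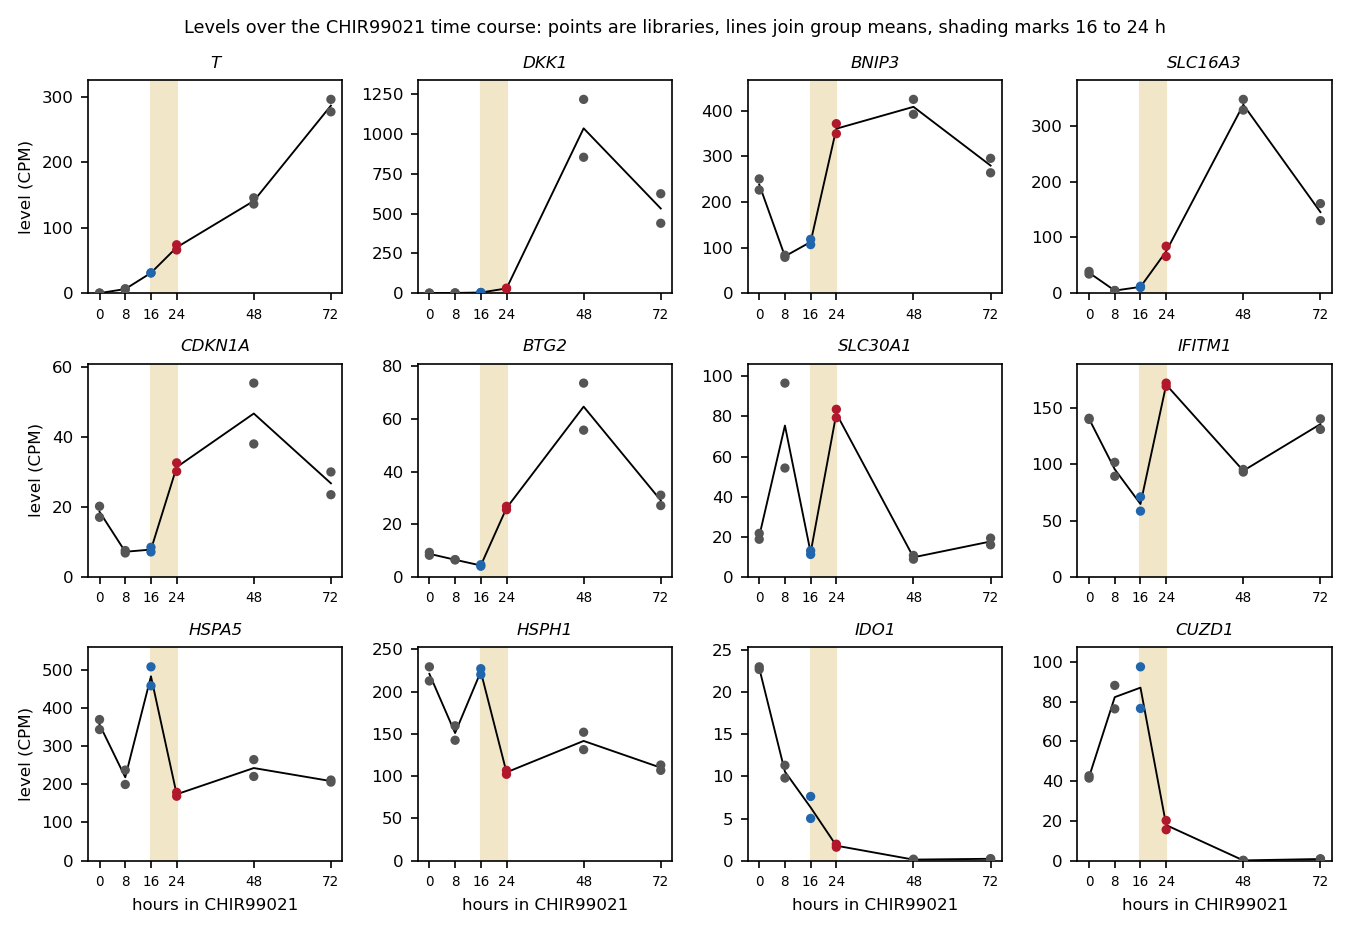
Level (CPM) of 12 genes over the CHIR99021 time course (hours on the horizontal axis); points are libraries, lines join the group means of 2 libraries, and shading marks 16 h to 24 h, with 16 h points in blue and 24 h points in red. T climbs throughout, SLC30A1 is high at 8 h and 24 h, and HSPA5 peaks at 16 h with 482 CPM, against 174 CPM at 24 h.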

How the data were processed

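Total RNA of H9 cultures was sequenced from stranded libraries, per the labels' protocols. The authors deposited estimated counts per gene, and kallisto 0.43.0 is named in the submitters' processing notes; how values were summed to genes is not given in the sources used here. The deposited values of a library were read as estimated counts times 1 constant, taken as its most frequent low value (0.265 to 6.58), and each column was divided by it and rounded. No source used here states this scaling; 57.5% to 81.4% of values up to 20 were then whole within 0.1 and the rest were not, and the values as they stand were an alternative. The replicates of Wnt3a 72 h held identical values and were counted once, which left 37 libraries. Genes passing filterByExpr (24304) were fitted with 19 group means in edgeR 4.0.16 (R 4.3.3; TMM, quasi-likelihood F test, Benjamini-Hochberg adjustment over all genes tested, called below 0.05); the SE is the log2 change over the root of F. DESeq2 1.42.0 was an alternative. Replicates are labelled biological, and nothing in the labels says that they came from separate days. The p-values therefore measure the spread between replicate samples of this kind, pooled over the 19 groups and 37 libraries of the fit. They do not measure the spread of the 4 libraries of the step alone. Replicate numbers did not pair the samples (correlation of deviations 0.0195 between 16 h and 24 h). Named genes were the 12 most risen and 12 most fallen protein-coding genes with at least 5 CPM. The most changed genes of other types, members of lists, and genes named after their values were seen, as the text says, were added. The rule for the most changed genes also required that the 24 h and 16 h libraries did not overlap. It was applied to the difference between the arms as well. The members and lists were chosen with earlier results of these data known, and 4 lists (cytosolic chaperones, endoplasmic reticulum chaperones, RNA-binding proteins, snoRNA hosts) after the values were seen. Reads of near-identical copies (ribosomal proteins, HSPA1A and HSPA1B, SLC2A3, metallothioneins) may be split among them. Some genes and a gene list are not reported here.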

Additional observations from a re-analysis of the deposited data

Results flagged for a closer look

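The step from 16 h to 24 h was compared between the CHIR99021 and beta-catenin arms by an interaction term in edgeR's quasi-likelihood test, and the genes below differed at an adjusted p below 0.05. Values are log2, CHIR step minus bcat step. Of 115 named genes of the text, 52 differed, 41 of them more positive and 11 more negative with CHIR99021; 34 of these were also called without bcat 24 h replicate 1 and 27 without each of the 8 libraries. The rules that named these genes drew on the CHIR step, and in part on this difference, in the same libraries. This favours a high share, so 52 of 115 is no measure of how often the steps differ. Over all genes tested the share was 2.53%. Whether line, agent or library composition moves these values was not tested.

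The genes whose step was more positive with CHIR99021 differed in this order of size. The steps differed in SLC16A3 by 3.28, CXCL14 by 3.0, LINC00458 by 2.77, PCDH10 by 2.77, DKK4 by 2.47, LEFTY1 by 2.33 and MIXL1 by 2.29. Next came PCDH20 by 2.29, BTG2 by 2.07, FAM189A2 by 2.03, P4HA1 by 1.99, MIR34AHG by 1.92, NODAL by 1.82 and BNIP3 by 1.75. These were followed by ARRB1 by 1.63, MT1X by 1.6, IFITM1 by 1.57, PDK1 by 1.57, SESN1 by 1.5, T by 1.48 and LINC01356 by 1.47. Smaller were ETV5 by 1.46, FGF11 by 1.33, PGM1 by 1.32, SLC2A1 by 1.32, NANOG by 1.31, EIF4A2 by 1.26 and PGK1 by 1.24. Below these lay FGF13 by 1.12, LDHA by 1.1, SLC2A3 by 1.06, RRM2B by 0.94, ZFAS1 by 0.92, CDH2 by 0.87 and VLDLR by 0.87. The last were GAS5 by 0.80, VIM by 0.70, RPS18 by 0.68, RPS27 by 0.68, RPL27 by 0.64 and TNFRSF10B by 0.63.

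More negative with CHIR99021 were EFNA5 by -2.33, CUZD1 by -2.05, MAP1A by -1.91, CDX2 by -1.39, HSPA1B by -1.3, HSPA5 by -0.98 and PSME3 by -0.96. Further in this direction were SOX2 by -0.85, GPC4 by -0.84, TARDBP by -0.76 and TJP1 by -0.58.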

How the results depend on the processing

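The step from CHIR 16 h to CHIR 24 h called 1966 genes. It called 2271 with RLE size factors, 2709 with DESeq2, 1636 with no filter on low counts, 2626 in a fit of the 4 libraries alone and 1804 on the deposited values as they stand. More were called with CHIR-arm libraries only (3365) and with a replicate block in that arm (3322), where the spread is estimated from that arm; the replicate numbers did not pair the samples. Leaving out 1 of the 4 libraries gave 678 to 1395 calls. Leaving out a library gave 67 to 178 calls for the bcat step (334 in full), 213 to 625 for the difference between the arms (614 in full) and 6934 to 7224 for CHIR 48 h against CHIR 8 h (8871 in full). Without the 4 libraries in doubt, chosen after seeing the data, the bcat step gave 127 and the difference 334 calls. With the replicate block the bcat step, the difference and CHIR 48 h against CHIR 8 h gave 306, 547 and 8719. Of 158 called genes of the 188 chosen for naming, 77 stayed called under every alternative and without each library, and 0 reversed. The 4 libraries of the step limit the precision. On simulated data of this depth, 67 of 100 genes changed 2-fold and 85 of 100 changed 4-fold were recovered. The simulation changed far fewer genes than were called here, and drew them by their mean level over all groups. These shares therefore do not give the power of the step itself.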
